A study of Homo sapiens with 6 samples.

Results

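Genes of potassium, chloride, calcium, nonselective cation and sodium channels were examined in the human melanoma cell line A375, in RIPK4 knockout and control cells. The members were taken by gene symbol from the deposited table (the KCN, ANO, CLCN, CACN, TRPC, TRPM, TRPV, SCN, P2RX, PIEZO and ORAI families), and 120 of the 20851 listed genes matched. By the ion they carry, 56 belonged to potassium, 15 to chloride, 17 to calcium, 22 to nonselective cation and 10 to sodium channels, and accessory subunits were placed with their channel. The comparison was between 3 libraries of A375 RIPK4.KO cells, a knockout subline made with CRISPR/Cas9, and 3 libraries of A375 neg cells. The latter are the negative control, made with a nontargeting sgRNA according to the paper. Only the A375 neg label names GFP. Whether the groups differ in GFP is not given in the sources used here, and an effect of such a difference cannot be told apart from loss of RIPK4. No drug treatment or time course is named for either group. All A375 RIPK4.KO libraries came from 1 clone (clone #1), so loss of RIPK4 and a property of this clone cannot be told apart. The series describes the 3 samples of each group as biological replicates but names no separate cultures, so p-values measure the spread between these samples.

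Ion channels are membrane proteins that let selected ions pass down their electrochemical gradient. Potassium channels hold the membrane potential negative and thereby set the driving force for calcium entry, and chloride channels act in volume control, in secretion and in the acidification of endosomes and lysosomes. ANO1 (TMEM16A) is a calcium-activated chloride channel that opens when cytosolic calcium rises, is used as a diagnostic marker of gastrointestinal stromal tumours and is amplified or overexpressed in several carcinomas. Calcium enters nonexcitable cells largely through store-operated ORAI pores, which STIM sensors of the endoplasmic reticulum open, and through TRP channels.

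The libraries held 21882863 to 26694140 counts over genes, and a gene with 0 counts may still have been present at up to 3 counts, or 0.112 to 0.137 CPM (counts relative to the library total). Such limits cover counting error only. RIPK4 had 319, 368 and 404 counts in A375 neg against 42, 51 and 61 in A375 RIPK4.KO, a log2 change of −2.69 (standard error 0.17, adjusted p = 1.01e-05). A375 RIPK4.KO replicate 2 stood apart: genes with at least 5803 bp of exon deviated there from their group mean by a median of −0.093 and those with up to 2349.5 bp by 0.128 on the log2 scale. Of the melanocyte lineage markers, 5 of 8 were listed. SOX10 was high in all libraries and not changed (log2 change −0.20, adjusted p = 0.051), S100B fell (−0.89) and TYRP1 had at most 8 counts. MITF was lower by less than 1.5-fold (−0.44, adjusted p = 0.045), and its groups did not overlap. PMEL, at 3 to 22 counts, was at −0.30 (adjusted p = 0.79). The median log2 change of the 4 lineage markers tested was −0.37. The summed normalized count of the list, most of it SOX10, was 9436 to 10210 in A375 neg against 8154 to 8564 in A375 RIPK4.KO. Of 4 leukocyte markers 2 were listed, and their summed normalized count was 33.2 to 37.99 in A375 neg against 0 to 14.2 in A375 RIPK4.KO. Nearly all of it was LYZ (log2 change −2.62, adjusted p = 0.038), with PTPRC at 0 to 3 counts. The sum of the endothelial markers was 31.99 to 36.02 and 6.08 to 12.02. In A375 neg most of it was PECAM1 (−2.12, adjusted p = 0.0056). CDH5, which did not pass the filter on low counts, had 7, 7 and 14 counts in A375 neg against 4, 2 and 0 in A375 RIPK4.KO. VWF had 0 to 5 counts, and its groups overlapped. The leukocyte sum thus follows 1 gene, and both sums rest on low counts. KRT14, a keratinocyte marker, fell (log2 change −1.75), while KRT10, the most abundant of that list, was not changed (−0.0055, adjusted p = 0.98). The summed keratinocyte markers ran from 1755 to 1845 and from 1308 to 1623. No neuronal marker passed the filter on low counts. The muscle marker list had 1 of 4 genes listed, with sums of 27.99 to 38.9 and 4.18 to 28.4. Of the 4 markers of an undifferentiated melanoma state, SOX9 rose (log2 change 2.71, adjusted p = 0.00028) and NGFR fell (−3.03, adjusted p = 0.00014). AXL (0.18, adjusted p = 0.073) and EGFR (0.22, adjusted p = 0.26) were not changed. The summed list was 14390 to 14930 in A375 neg against 16040 to 17390 in A375 RIPK4.KO. Most of that sum was AXL, at 13460 to 14030 against 15160 to 16320, so it says little about the other markers. Any part of these markers in the channel results was not tested.

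Of the 120 channel genes, 75 passed edgeR's filter on low counts and were tested. A gene counted as changed when its adjusted p was below 0.05 and it differed at least 1.5-fold, and 11 channel genes were changed, 7 higher and 4 lower in A375 RIPK4.KO. That is 14.7% of the tested channel genes, beside 9.04% of all 14443 genes tested (4.39% higher and 4.65% lower). KCNK6, KCNF1, KCNJ4 and KCNS3 rose among the potassium channel genes, CLCN4 among the chloride genes, and CACNG6 and CACNG7 among the calcium genes. ANO1, ORAI3, TRPC4 and TRPV4 fell. CACNG7, KCNJ4 and KCNK6 passed the filter only through A375 RIPK4.KO, and TRPC4 only through A375 neg, the group where each was high. With a filter at a mean of at least 50 counts, 6 of 46 tested channel genes were changed, 3 higher and 3 lower. Beside them, 963 of 11688 genes were called. In bulk RNA, fewer cells that express a gene and less of its RNA per cell cannot be told apart. The median log2 fold change was −0.03 over the 75 channel genes and −0.0047 over all genes tested, and 37 channel genes had a positive and 38 a negative value. The normalized counts of both groups did not overlap for 31 of the 75 (41.3%), beside 36.5% of all genes tested.

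**Figure D1:**
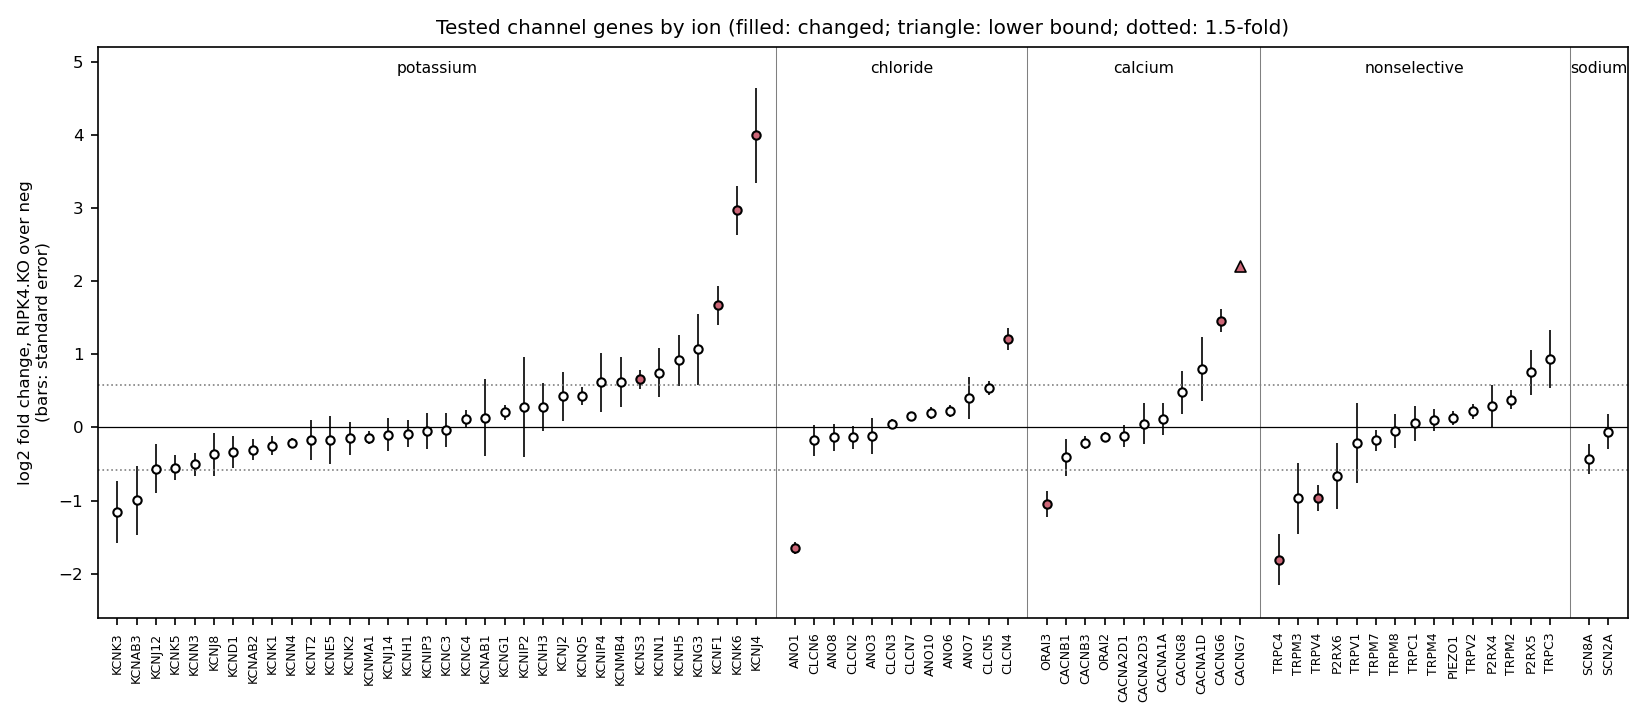
Log2 fold change (A375 RIPK4.KO over A375 neg, vertical axis) of 74 of the 75 tested channel genes, ordered within each ion. Points are edgeR estimates with standard errors, filled where the gene was changed, the triangle is the lower bound for CACNG7, and the dotted lines mark 1.5-fold. The 4 changed potassium genes lie above 0, the 2 changed nonselective cation genes below it, and no sodium gene was changed.

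Promoter sequence is shown for changed genes whose only RefSeq start site lies within 30 bp of the GENCODE v29 start. The starts of the 4 genes differ by 1 to 30 bp between the annotations, and the printed bases end before the RefSeq start. Of the 11 changed genes, 9 matched the RefSeq promoter table (GRCh38.p14), with 10 windows of 300 bases because KCNS3 has 2 starts, and CACNG7 and TRPV4 did not match. The windows of ANO1 and KCNJ4 are not shown, since their RefSeq starts lie 92395 and 11171 bp from the GENCODE starts, and counts per gene do not say which start the cells used. The lines give the 250 bases before the start, 5′ to 3′ on the plus strand: chr19:38319595-38319844 for KCNK6, chr2:10911684-10911933 for KCNF1, chrX:10156725-10156974 for CLCN4 and chr16:30948818-30949067 for ORAI3. Capitals mark a match on either strand to 1 of 5 searched motifs: the E-box CACGTG, the AP-1 motif TGANTCA, the GC box GGGCGG, the TATA box TATAAA and the TEAD element GGAATG.
KCNK6: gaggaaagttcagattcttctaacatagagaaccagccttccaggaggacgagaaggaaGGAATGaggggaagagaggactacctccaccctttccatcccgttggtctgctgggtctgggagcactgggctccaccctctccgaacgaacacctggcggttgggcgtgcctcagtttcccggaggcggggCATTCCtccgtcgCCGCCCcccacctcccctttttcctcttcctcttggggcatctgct
KCNF1: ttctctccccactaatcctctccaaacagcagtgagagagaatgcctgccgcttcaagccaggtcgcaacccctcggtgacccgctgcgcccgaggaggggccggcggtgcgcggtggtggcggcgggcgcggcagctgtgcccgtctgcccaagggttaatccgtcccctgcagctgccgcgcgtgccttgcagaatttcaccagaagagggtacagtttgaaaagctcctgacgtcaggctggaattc
CLCN4: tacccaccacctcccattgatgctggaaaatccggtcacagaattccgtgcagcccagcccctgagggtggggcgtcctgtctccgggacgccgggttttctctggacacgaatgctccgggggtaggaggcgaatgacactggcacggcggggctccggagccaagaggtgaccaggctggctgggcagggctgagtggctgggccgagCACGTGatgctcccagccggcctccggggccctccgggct
ORAI3: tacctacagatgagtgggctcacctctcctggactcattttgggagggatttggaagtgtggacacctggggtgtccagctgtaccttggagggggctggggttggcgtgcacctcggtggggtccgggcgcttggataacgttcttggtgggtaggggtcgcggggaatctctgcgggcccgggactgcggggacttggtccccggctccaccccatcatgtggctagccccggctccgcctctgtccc
KCNK6, which rose, held 2 TEAD elements and 1 GC box, and CLCN4, which also rose, held 1 E-box. KCNF1, which rose, and ORAI3, which fell, held none of the 5. Over the 10 windows of changed genes, a GC box was found in 6, an E-box, an AP-1 motif and a TEAD element in 1 each and a TATA box in 0. Among all 35116 promoters of the table the shares were 45% for the GC box, 7.26% for the E-box, 7.71% for the AP-1 motif, 14% for the TEAD element and 11.5% for the TATA box, and among 148 channel gene windows 54.7%, 11.5%, 8.78%, 8.78% and 10.1%. None of these motifs contains another, and a match describes the sequence without showing that a factor binds there. The windows of the channel genes held a median of 18 CpG dinucleotides, beside 14 over all promoters. ORAI3 held 17, KCNK6 16, CLCN4 18 and KCNF1 22.

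ANO1 lies on chromosome 11 of GRCh38 from 69965997 to 70189530. Its raw counts were 1164, 1340 and 1328 in A375 neg replicates 1, 2 and 3 against 356, 401 and 351 in A375 RIPK4.KO. Every A375 neg library was above every A375 RIPK4.KO library, and neither group had a library that lay far from the others. The TMM-normalized count fell from 1219 ± 49.3 to 387.9 ± 31.4 (SD, n = 3), a log2 change of −1.65 (standard error 0.08, edgeR adjusted p = 3.42e-06). This is a 3.14-fold decrease, the largest fall among the chloride channel genes tested. A two-sided exact permutation test of the 6 normalized counts gave p = 0.1, the smallest value that 3 against 3 libraries allow. LINC02584, a noncoding gene overlapping ANO1, had 159, 204 and 192 counts in A375 neg against 52, 107 and 99 in A375 RIPK4.KO (log2 change −0.97, adjusted p = 0.0249). The strand setting used for counting is not given in the sources used here, so reads shared between both genes cannot be told apart.

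On a level per length (CPM per kilobase of exon, with TMM-scaled library sizes), ANO1 was at 9.10 ± 0.37 in A375 neg, between ANO6 at 10.6 ± 1.02 and CLCN3 at 7.57 ± 0.38 (SD, n = 3). In A375 RIPK4.KO it was at 2.90 ± 0.23 (SD, n = 3), below CLCN2 at 3.15 ± 0.13. These 2 levels differed by less than the sum of their SDs. The summed level of the 15 chloride genes was 62.6 ± 1.34 in A375 neg against 62.7 ± 0.55 in A375 RIPK4.KO (SD, n = 3). The fall of ANO1 was thus not seen in the sum. The 4 most abundant genes made up 74.7% of it, and the mean of each was higher in A375 RIPK4.KO. CLCN7 went from 13.9 to 15.45, ANO10 from 11.98 to 13.7, ANO6 from 10.6 to 12.4 and CLCN3 from 7.57 to 7.85.

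None of these 4 most abundant genes, CLCN7, ANO10, ANO6 and CLCN3, was changed. CLCN7, the chloride-proton exchanger of lysosomes, had 1683, 1701 and 1675 counts in A375 neg against 1609, 1736 and 1784 in A375 RIPK4.KO (log2 change 0.15, adjusted p = 0.12). ANO10 had 1021, 1049 and 1006 against 953, 1211 and 1049 counts (0.20, adjusted p = 0.17). Normalized counts of these 2 genes did not overlap between groups, yet their differences missed the threshold. ANO6 (TMEM16F), a calcium-activated lipid scramblase that also conducts ions, had 1729, 1940 and 2176 against 2020, 1922 and 2283 counts (0.23, adjusted p = 0.11). CLCN3, an exchanger of endosomes, had 1310, 1426 and 1508 against 1303, 1309 and 1394 counts (0.05, adjusted p = 0.63). Their groups overlapped.

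CLCN4, a chloride-proton exchanger of endosomes, rose. It had 84, 102 and 105 counts in A375 neg against 190, 216 and 206 in A375 RIPK4.KO, with no overlap. The normalized count was 92.5 ± 7.87 and 214.0 ± 9.96 (SD, n = 3), a log2 change of 1.21 (standard error 0.15, adjusted p = 0.00061). CLCN5, the exchanger of endosomes that is mutated in Dent disease, is named after its values were seen: it had 399, 406 and 403 counts in A375 neg against 516, 484 and 605 in A375 RIPK4.KO. Its adjusted p was 0.0048 at a log2 change of 0.54, which is under the 1.5-fold limit. Of the 6 CLC genes, all of which were tested, 1 was thus changed, and 1 of the 6 tested anoctamins.

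**Figure D2:**
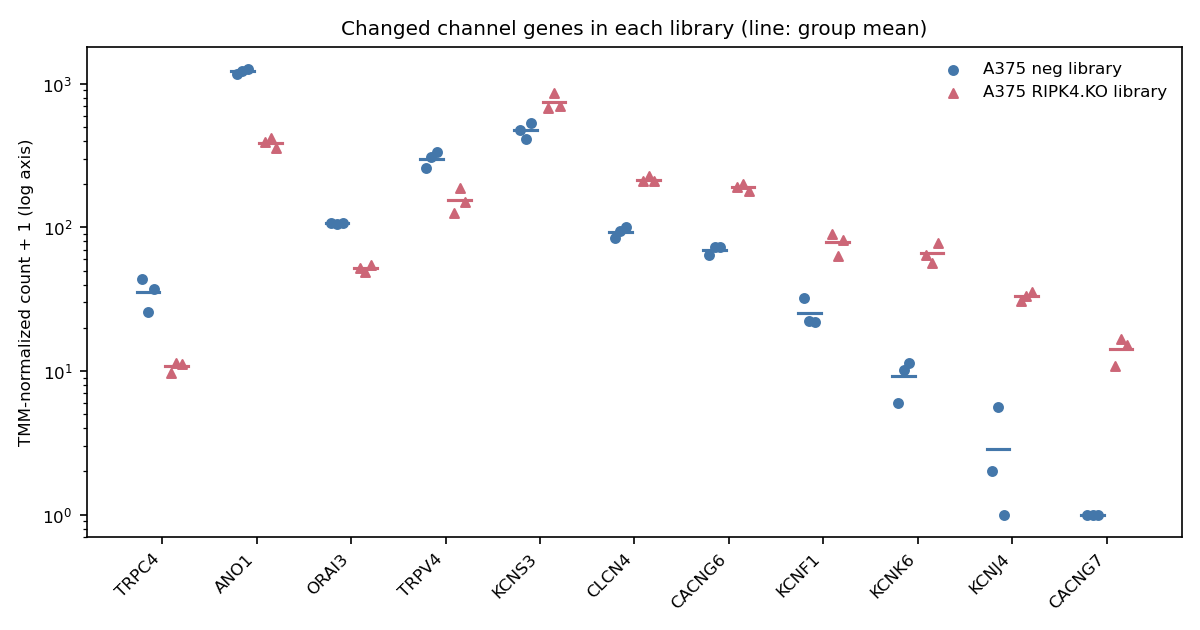
TMM-normalized counts plus 1 (log axis) of the 11 changed channel genes in each of the 3 A375 neg (circles) and 3 A375 RIPK4.KO libraries (triangles), with lines at the group means. The groups do not overlap for any of these genes, and CACNG7 has 0 counts in all 3 A375 neg libraries.

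Potassium channel genes had the highest summed level, 114.1 ± 3.95 in A375 neg against 117.9 ± 7.57 in A375 RIPK4.KO (SD, n = 3), and 34 of 56 were tested. KCNN4 (KCa3.1), the calcium-activated potassium channel of intermediate conductance, was the most abundant channel gene of all, with 38.4% of the potassium sum. It had 2554, 2944 and 2775 counts in A375 neg against 1958, 2318 and 2251 in A375 RIPK4.KO. The normalized counts did not overlap, 2632 ± 79.2 against 2281 ± 139.9 (SD, n = 3), but a log2 change of −0.21 missed the threshold (standard error 0.07, adjusted p = 0.061). KCNG1 followed, with 1762, 2315 and 1988 against 1766, 2345 and 2269 counts, and its groups overlapped (0.21, adjusted p = 0.21). KCNK1 (TWIK-1), a leak channel of the KCNK family, had 294, 274 and 343 against 223, 241 and 233 counts (−0.25, adjusted p = 0.23). KCNN4 and KCNG1 did not differ beyond their spread within A375 RIPK4.KO, at levels per length of 41.4 ± 2.54 and 41.0 ± 4.91 (SD, n = 3). In A375 neg KCNN4 was above KCNG1, at 47.75 ± 1.44 and 35.5 ± 3.48 (SD, n = 3).

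KCNS3, next after them in level among the potassium genes, encodes a modifier subunit (Kv9.3) that forms no channel alone and changes the gating of the pores it joins. It had 475, 448 and 564 counts in A375 neg against 622, 825 and 690 in A375 RIPK4.KO. Its normalized count rose from 474.1 ± 60.9 to 746.9 ± 99.5 (SD, n = 3), a log2 change of 0.66 (standard error 0.12, adjusted p = 0.0063) that was close to the 1.5-fold limit. Without A375 neg replicate 2 it was 0.57 and without A375 RIPK4.KO replicate 2 it was 0.55, both under that limit. KCNF1 (Kv5.1), another silent modifier subunit, had 31, 23 and 22 against 82, 60 and 79 counts, with no overlap. Its normalized count rose from 24.3 ± 5.76 to 77.5 ± 13.7 (SD, n = 3), a log2 change of 1.67 (standard error 0.27, adjusted p = 0.0027). The other modifier subunits tested, KCNG1 and KCNG3, were not changed. KCNG3 had only 13, 13 and 4 against 13, 23 and 22 counts, and its normalized counts did not overlap. Its log2 change of 1.07 was imprecise (standard error 0.49, adjusted p = 0.18).

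KCNK6 (TWIK-2), a leak channel that passes potassium at rest, had 5, 10 and 11 counts in A375 neg against 58, 53 and 76 in A375 RIPK4.KO. The lowest A375 RIPK4.KO library was thus far above the highest A375 neg library. The normalized count rose from 8.21 ± 2.85 to 65.3 ± 10.98 (SD, n = 3), a log2 change of 2.97 (standard error 0.33, adjusted p = 0.00034) or 7.81-fold. The gene span overlaps that of YIF1B, which had 1126 to 1346 counts in A375 neg, 1041 to 1307 in A375 RIPK4.KO, and was not changed (0.06, adjusted p = 0.70). KCNJ4 (Kir2.3), an inward rectifier best known from brain and heart, had 1, 5 and 0 counts in A375 neg against 27, 31 and 34 in A375 RIPK4.KO. A375 neg was near the counting limit, so its log2 change of 3.99 (standard error 0.65, adjusted p = 0.0030) is imprecise, and leaving out 1 library moved it between 3.43 and 5.71. At levels per length of 0.46 ± 0.08 for KCNK6 and 0.63 ± 0.05 for KCNJ4 in A375 RIPK4.KO (SD, n = 3), both stayed well below KCNN4.

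By structural class, 2 of 11 tested genes of the voltage-gated class, which here includes the modifier subunits, were changed, 1 of 5 KCNK genes, 1 of 5 inward rectifiers, 0 of 5 calcium- or sodium-activated genes and 0 of 8 accessory subunits. Over the 34 potassium genes the log2 fold changes ran from −1.16 to 3.99 with a median of −0.04. KCNQ5, a voltage-gated subunit of the M-current and named after its values were seen, had 304, 424 and 397 counts against 421, 435 and 518, an adjusted p of 0.041 and a log2 change of 0.43, under the 1.5-fold limit. With it and CLCN5, 13 of the 75 channel genes had an adjusted p under 0.05 at any fold, beside 16.6% of all genes tested.

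The calcium channel genes had a summed level of 28.8 ± 0.60 in A375 neg against 29.01 ± 2.24 in A375 RIPK4.KO (SD, n = 3), of which 33.8% was ORAI2. ORAI2, a store-operated pore subunit, had 2696, 2908 and 2891 counts against 2415, 2212 and 2456 and was not changed (log2 change −0.13, adjusted p = 0.24). ORAI3, which forms mixed channels with other ORAI proteins, fell. It had 106, 113 and 112 counts in A375 neg against 47, 46 and 53 in A375 RIPK4.KO, with little spread within either group. The normalized count was 105.4 ± 1.14 and 51.0 ± 2.87 (SD, n = 3), a log2 change of −1.04 (standard error 0.18, adjusted p = 0.0039). On the level per length, ORAI3 was at 1.74 ± 0.02 in A375 neg, below ORAI2 at 10.2 ± 0.12 (SD, n = 3).

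The γ subunit genes CACNG7, CACNG8 and CACNG6 lie side by side on chromosome 19. CACNG6 encodes a subunit that modulates voltage-gated calcium channels, and CACNG7 and CACNG8 encode proteins best known as auxiliary subunits of AMPA glutamate receptors. CACNG6 (53991149 to 54012666) had 63, 78 and 76 counts in A375 neg against 173, 192 and 177 in A375 RIPK4.KO. Its normalized count rose from 69.0 ± 5.17 to 189.7 ± 10.5 (SD, n = 3), a log2 change of 1.46 (standard error 0.16, adjusted p = 0.00029). CACNG7 (53909278 to 53943950) had 0, 0 and 0 counts in A375 neg against 9, 15 and 14 in A375 RIPK4.KO. It was at least 4.61-fold higher when A375 neg is set to 3 counts per library (edgeR adjusted p = 0.0060), and its level per length in A375 RIPK4.KO, 0.19 ± 0.04 (SD, n = 3), was low.

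CACNG8, between them and named after its values were seen, had 455, 391 and 367 counts in A375 neg against 741, 286 and 505 in A375 RIPK4.KO. The groups overlapped, since A375 RIPK4.KO replicate 2 was below all A375 neg libraries, at a log2 change of 0.48 (standard error 0.30, adjusted p = 0.32). Without that library it was 0.77 (adjusted p = 0.013), past both limits, but it was not called with any other library left out. The estimate also depends on A375 RIPK4.KO replicate 1. Normalized counts were 809.9, 298.6 and 512.0 in A375 RIPK4.KO replicates 1, 2 and 3 against 454.9, 360.2 and 347.8 in A375 neg. Of the remaining abundant calcium genes, CACNB3, a β subunit that brings pores to the membrane, had 661, 689 and 713 against 524, 595 and 507 counts (−0.21, adjusted p = 0.15). CACNA2D1, the α2δ subunit bound by gabapentin, had 554, 650 and 750 against 590, 428 and 621 counts (−0.12, adjusted p = 0.65). Neither was changed. Of the voltage-gated pore genes, CACNA1A and CACNA1D were tested, at mean levels per length of 0.30 and 0.07, and not changed.

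Among the nonselective cation channel genes, TRPV4 and TRPC4 fell and 15 of 22 were tested. TRPV4, a calcium-permeable channel that opens on osmotic and mechanical stimuli, had 259, 335 and 351 counts in A375 neg against 115, 178 and 148 in A375 RIPK4.KO. Its level per length fell from 3.70 ± 0.46 to 1.90 ± 0.37 (SD, n = 3), a log2 change of −0.96 (standard error 0.17, adjusted p = 0.0051). TRPC4, a channel opened downstream of phospholipase C, had 43, 27 and 38 counts against 8, 10 and 10. Its normalized count fell from 34.6 ± 9.14 to 9.77 ± 0.90 (SD, n = 3), a log2 change of −1.81 (standard error 0.35, adjusted p = 0.0070). Both groups were apart in each gene, and TRPC4 was the lower of the 2 in level.

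The most abundant nonselective genes were not changed. TRPV2 had 914, 1203 and 995 counts in A375 neg against 1002, 1232 and 1062 in A375 RIPK4.KO (log2 change 0.22, adjusted p = 0.17). PIEZO1, the mechanically gated channel, had 2681, 3117 and 2893 against 3036, 2438 and 3125 counts (0.12, adjusted p = 0.44). TRPV2 and PIEZO1 had mean levels per length of 15.5 and 14.4, and their groups overlapped. TRPM7, a channel fused to a kinase that carries magnesium and calcium, had 1460, 1575 and 1602 against 1342, 933 and 1461 counts (−0.18, adjusted p = 0.45). TRPM2, opened by ADP-ribose, had 453, 523 and 394 against 439, 615 and 574 counts (0.38, adjusted p = 0.086). The summed level was 45.6 ± 2.00 in A375 neg against 47.8 ± 1.09 in A375 RIPK4.KO (SD, n = 3).

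Sodium channel genes were low, with a summed level of 1.76 ± 0.19 in A375 neg against 1.59 ± 0.06 in A375 RIPK4.KO (SD, n = 3), and none of the 3 tested was changed. SCN8A (Nav1.6) had 184, 159 and 186 against 134, 89 and 134 counts (log2 change −0.43, adjusted p = 0.19), and SCN2A (Nav1.2) 112, 84 and 67 against 67, 84 and 81 (−0.06, adjusted p = 0.90). The normalized counts of SCN8A met at 146.5 in A375 neg replicate 2 and A375 RIPK4.KO replicate 1, and those of SCN2A overlapped.

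A375 RIPK4.KO replicate 2 had the lowest normalized count of its group in 34 of the 75 channel genes (45.3%), beside 38.6% of all genes tested. Channel genes were also longer, with a median exon length of 4731 bp beside 3744 bp over the tested genes that had a length. With each library corrected for its trend on exon length, the 11 genes were called as before and CLCN5 was added. Without A375 RIPK4.KO replicate 2, 13 channel genes were called, 10 of them among the 11, and KCNS3 was the 1 lost. Within groups, the median coefficient of variation over the 75 genes was 13.1% in A375 neg against 14.4% in A375 RIPK4.KO.

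Of 115 other genes of the same ion pathways (STIM sensors, calcium stores, pumps, cotransporters, the sodium-potassium pump and other channel families), 92 were listed and 72 tested. None rose and 2 fell past both limits, beside 9.04% of all genes tested in either direction. ATP2B4, a plasma membrane pump that exports calcium, had 3807, 3753 and 3789 counts in A375 neg against 1803, 1711 and 1882 in A375 RIPK4.KO (log2 change −0.94, standard error 0.07, adjusted p = 2.3e-05). RYR2, a release channel of intracellular calcium stores, had 772, 758 and 724 against 374, 341 and 483 counts (−0.78, standard error 0.12, adjusted p = 0.0020). The groups did not overlap for either gene. At any fold, 5 of the 72 had an adjusted p under 0.05 with a higher and 8 with a lower count. Beside this stood 16.6% of all genes tested in either direction. The median log2 fold change of the 72 was −0.05.

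Genes of calcium entry and of calcium release from stores, outside the ORAI family, are named after their values were seen. STIM2, a sensor of stored calcium, had 1802, 2036 and 1992 counts against 1244, 1301 and 1424 (log2 change −0.42, adjusted p = 0.0014), and STIM1 819, 924 and 907 against 584, 696 and 727 (−0.27, adjusted p = 0.050, not under 0.05). ITPR1, the inositol trisphosphate receptor through which stores release calcium, had 518, 582 and 581 against 348, 344 and 383 counts (−0.51, adjusted p = 0.0033). All 3 stayed under the 1.5-fold limit. Of the other store-operated entry genes tested, SARAF was at −0.23 (adjusted p = 0.094), STIMATE at 0.08 (adjusted p = 0.53) and CRACR2A at 0.15 (adjusted p = 0.31). The more abundant inositol trisphosphate receptors ITPR2 and ITPR3 were at −0.22 (adjusted p = 0.18) and −0.12 (adjusted p = 0.26). LRRC8A, the obligatory subunit of the volume-regulated anion channel, had an adjusted p of 0.89 at a log2 change of 0.02. Its partner subunits differed in sign, with LRRC8C at 0.36 (adjusted p = 0.031), LRRC8E at 0.40 (adjusted p = 0.032), LRRC8B at −0.35 (adjusted p = 0.088) and LRRC8D at −0.07 (adjusted p = 0.57). In the cotransport list, SLC12A2 (NKCC1), which loads cells with chloride, was at −0.31 (adjusted p = 0.032), and the kinases WNK4 and STK39 that regulate it at 0.46 (adjusted p = 0.0045) and 0.44 (adjusted p = 0.0055). The related kinases OXSR1, WNK1 and WNK2 were at −0.21 (adjusted p = 0.12), −0.07 (adjusted p = 0.68) and 1.15 (adjusted p = 0.29).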

How the data were processed

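RNA was measured by poly(A)-enriched, strand-specific sequencing (NEBNext Ultra II Directional) in 3 A375 neg and 3 A375 RIPK4.KO libraries. The authors deposited 1 table of raw counts per gene, whole numbers with no normalization, and a normalized signal that is the raw count divided by 1 size factor per library (largest difference from that rule 0.0074), used here only for that check. The submitters' processing notes name cutadapt, FastQC, HISAT2, HTSeq, DESeq2 and the build GRCh38.p13; versions and the strand setting are not given in the sources used here. The authors' fold changes and p-values in the table were not used.

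All 20851 genes entered 1 fit in R 4.3.3 with edgeR 4.0.16 (TMM scaling, the filterByExpr filter and the quasi-likelihood test with no covariate, adjusted by Benjamini-Hochberg over the 14443 genes tested), and all adjusted p-values come from it unless another tool is named. The standard error is the size of the log2 fold change over the square root of F. Normalized counts are raw counts over each library's TMM-scaled relative size. Levels per length divide by the union of exons in GENCODE v29. Gene positions and promoters are from RefSeq GRCh38.p14. Genes named by rule were ANO1, changed channel genes, the 4 most abundant of each ion, RIPK4 and changed ion-transport genes. Some results for genes this rule covers are not reported here. The channel genes and lists were chosen with earlier results of these data known. Alternatives were DESeq2 1.42.0 and its size factors in edgeR, no filter or a mean of at least 50 counts, other limits, a length correction, summed gene copies, the replicate number as a block and each library left out. Set after seeing the data was the length of the longest transcript. In counts simulated for this comparison (14500 genes), edgeR recovered 91% of 2-fold and 98% of 4-fold changes and called 5 unchanged genes. Changes were placed only in genes above a minimum mean count, with the same dispersion for every gene. These shares therefore do not cover the genes with the lowest counts, such as CACNG7. Figures were drawn with matplotlib 3.10.9.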

Additional observations from a re-analysis of the deposited data

How the results depend on the processing

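The number of changed channel genes was 11 with DESeq2, with DESeq2's size factors and with gene copies summed, and the same 11 genes were called each time. It was 12 of 120 with no filter on low counts (KCNK15 was added), beside 1309 of 20851 genes. The length correction gave 12 of 75, beside 1374 of 14443. It fell to 6 of 46 with a mean of at least 50 counts, where fewer genes were tested, beside 963 of 11688. There, 3 were higher and 3 lower, against 7 and 4 in the main fit. A log2 limit of 1.5 also gave 6, with 4 higher and 2 lower. With 1 library left out it ran from 10 to 13. Without A375 RIPK4.KO replicate 2, 13 were called, of which 10 were among the 11, and CLCN5, KCNK15 and CACNG8 were added. P2RX5, KCNK5 and KCNN3 were each called only without 1 other library. Changed ion-transport genes numbered 4 with DESeq2 against 2, with SLC12A7 and CLIC1 (48 of its counts in A375 neg replicate 2) added, and 2 to 3 with 1 library left out. Same-numbered libraries of both groups correlated in their deviations at 0.082, 0.036 and −0.012, so the numbers were not taken as pairing. With the replicate number as a block, 11 channel genes and 3 ion-transport genes were called. The sign turned for unchanged genes only: with 1 library left out, CACNA2D1 ran from −0.20 to 0.040 and TRPM7 from −0.27 to 0.0016, both positive without A375 RIPK4.KO replicate 2, and SCN2A ran from −0.22 to 0.20, positive when the libraries numbered 1 of either group were left out (0.014 for A375 RIPK4.KO). Of the 11 changed genes, 5 had a mean under 50 counts per library, so their folds are less precise.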

Other observations

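The 45 channel genes that did not pass the filter had sums of 4 to 71 counts over the 6 libraries, with 5 genes at 0 in all A375 neg libraries and 2 at 0 in all A375 RIPK4.KO libraries. They comprised 22 potassium, 3 chloride, 6 calcium, 7 nonselective cation and 7 sodium genes. Examples were named after their values were seen, and their normalized counts did not overlap between groups. Others of the 45 did overlap, such as KCNQ3 with 0, 16 and 9 counts against 12, 8 and 3. PIEZO2, the mechanically gated channel of touch receptors, had 9, 20 and 24 counts in A375 neg against 2, 8 and 8 in A375 RIPK4.KO. KCNK15, a KCNK family gene with a listed antisense gene, had 2, 1 and 2 against 16, 6 and 10. ANO4 had 4, 6 and 3 against 21, 12 and 9, and CACNB4 5, 3 and 1 against 21, 5 and 9. These genes were not tested in the main comparison.

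ORAI1, the principal store-operated pore, appeared under a copy name (ORAI1_1) that the symbol rule did not take. That row had 33, 41 and 66 counts in A375 neg against 44, 61 and 58 in A375 RIPK4.KO, and its groups overlapped (log2 change 0.36, adjusted p = 0.45). TRPV1, the capsaicin receptor, had 64, 59 and 45 counts in A375 neg against 85, 14 and 31 in A375 RIPK4.KO, a spread within A375 RIPK4.KO that exceeded the difference between the groups (log2 change −0.22, standard error 0.55).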
